A study of Mus musculus with 8 samples.

Results

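The genes described here are abundant long RNAs that encode no protein. They were chosen by symbol, and fall into RNAs that stay in the nucleus (Malat1 and Neat1) and RNAs whose introns carry small nucleolar RNAs (Gas5, Snhg1, Snhg3 and Snhg12). Of these 6 genes, 4 were found among the 38392 genes of the expression table, namely Malat1, Neat1, Gas5 and Snhg12, and Snhg1 and Snhg3 were not analysed here. In the small intestine libraries, Malat1 was 8.68-fold and Neat1 11.9-fold higher than in the bone marrow libraries. Snhg12 was 1.87-fold lower. Gas5 read 1.34-fold lower, a difference that did not pass the test over all genes.

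Malat1 is a long RNA of nuclear speckles, the bodies where splicing factors gather, and its 3′ end is formed by cleavage that also releases a small tRNA-like RNA. Neat1 is the scaffold on which paraspeckles, another kind of nuclear body, are built, and its short and long isoforms share their 5′ end. Small nucleolar RNAs (snoRNAs) guide chemical modification of ribosomal RNA, and in mammals most are cut out of introns. Where the host encodes no protein, its spliced RNA is often exported, engaged by ribosomes and removed by nonsense-mediated decay, the pathway that degrades RNAs with premature stop codons. Many such hosts, like ribosomal protein genes, begin with a 5′ terminal oligopyrimidine (TOP) tract, a run of C and T bases that ties translation to growth signals.

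RNA was sequenced from eosinophils sorted out of the bone marrow and the small intestine of wildtype C57/BL6 female mice, with 4 libraries for each tissue. Bone marrow cells were gated as CD11b+ Ly6G- Ly6C- SiglecF+ SSChi, and intestinal cells as CD11b+ MHC-II- SiglecF+ SSChi. According to the methods of the study, the intestinal cells came through stripping of the epithelium, warm collagenase digestion and CD11b bead enrichment, and the marrow cells did not, so tissue and handling cannot be told apart. The comparison asked how gene expression in eosinophils differs between the intestine and the site where they are made. Column names gave the tissue of each library but not the single sample, and libraries are called by those names (BM_1, BM_3, BM_4, BM_5, SI_6, SI_7, SI_10 and SI_11).

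The libraries held 11508002 to 21289164 reads in genes. The marrow libraries stood apart from their label in part. Summed levels of 7 eosinophil markers ran from 192 to 295 RPM (scaled to the reads in genes of each library) in marrow and from 2149 to 2678 in the intestine, whereas 9 neutrophil precursor markers, led by Mpo, ran from 26390 to 30520 and from 30.5 to 33.6. Among the eosinophil markers, intestinal libraries had more of the receptors Siglecf and Ccr3 (differences of 2.39 and 7.83, log2), while the granule protein genes Epx and Prg2 differed by -3.94 and -3.62. Cycling markers (8 genes, Mki67 among them) summed to 3812 to 4384 RPM in marrow and 212 to 563.8 in the intestine. In the other direction, 6 epithelial markers summed to 4.25 to 6.50 against 168.5 to 1056, highest in SI_6, and 6 stromal markers to 27.2 to 36.5 against 499.8 to 572. Most of the stromal sum was Pecam1, which leukocytes also express, and the other 5 summed to 0.298 to 3.96 against 12.1 to 50.8. Monocyte and macrophage markers (8 genes, 7 called higher and 1 lower) summed to 569.6 to 745.6 against 958.2 to 1029. Most of the marrow sum was Ly6c2, which differed by -8.68, although the marrow cells were gated as Ly6C-. Most of the intestinal sum was Adgre1, which differed by 6.38. Adgre1 encodes EMR1, by which the study also identified human eosinophils. Lymphoid markers (7 genes, 2 called higher and 1 lower) summed to 15.5 to 24.9 against 29.5 to 169.8. Most of that intestinal sum was Jchain (difference 6.13), while the gene called lower was Cd79b (-2.68). Erythroid and mast cell or basophil markers summed lower in the intestinal libraries. No marker of any list was at 0 in all libraries of a tissue. The part of these cell types in the results below was not tested, and since these are bulk samples, fewer cells of a type and less RNA per cell cannot be told apart.

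The starts of the members are shown because the TOP tract is the sequence feature by which snoRNA hosts are usually grouped with ribosomal protein genes. The windows are RefSeq sequences on build GRCm38.p6, read along the strand of the gene, with 15 bases before the annotated start and 25 from it on. Capitals mark a tract, defined as a C that lies within 3 bases of the annotated start and is followed by at least 4 pyrimidines (C or T). Only the strand of the gene was searched. RefSeq lists a pair of starts for Gas5, the second of which has a tract. Neat1 is named only.

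Malat1, chr19:5802648-5802687, minus strand: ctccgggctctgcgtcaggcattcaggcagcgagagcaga

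Gas5, first start, chr1:161034586-161034625, plus strand: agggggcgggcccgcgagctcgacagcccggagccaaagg

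Gas5, second start, chr1:161035151-161035190, plus strand: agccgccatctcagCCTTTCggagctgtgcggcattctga

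Snhg12, chr4:132308663-132308702, plus strand: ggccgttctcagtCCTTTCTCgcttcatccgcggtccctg

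Snhg5, chr9:88522873-88522912, minus strand: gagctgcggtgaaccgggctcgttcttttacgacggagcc

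Both member hosts thus had a tract at a listed start, and Malat1 had none. Of 27025 genes with a window, 3651 held such a tract at any listed start (13.5%), and of 32851 starts 3792 did (11.5%). Snhg5 is shown as the gene with the largest fall in the list of other named noncoding hosts described further on, and its window held no tract under this definition, although a run of pyrimidines lies further on. A match describes letters near an annotated start and is not evidence that the RNA begins there.

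Malat1 (ENSMUSG00000092341, chr19:5795690-5802672 of GRCm38, minus strand, annotated as a lincRNA with 6983 exon bases) had rank 17 of all genes by mean normalised count in bone marrow and rank 2 in small intestine. Its normalised counts, which are reads divided by the size factor of the library, were 33378 in BM_1, 35214 in BM_3, 35812 in BM_4 and 34012 in BM_5. In small intestine they were 254281 in SI_6, 308977 in SI_7, 297499 in SI_10 and 340565 in SI_11. Every intestinal library thus lay far above every marrow library, and the marrow libraries were nearly level. The means were 34604 ± 1108 and 300330 ± 35694 (SD, n = 4 each). The difference on the deposited log2 scale, small intestine minus bone marrow, was 3.11 ± 0.18 (SE; limma, 95% interval 2.71 to 3.51, adjusted p = 5.5e-06).

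Neat1 (ENSMUSG00000092274, chr19:5824708-5845478, minus strand, lincRNA with 20771 exon bases) lies 22036 bases from Malat1. Its normalised counts were 2444 in BM_1, 2963 in BM_3, 2756 in BM_4 and 2920 in BM_5. Counts in small intestine were 29861 in SI_6, 35628 in SI_7, 31681 in SI_10 and 35159 in SI_11. Again the tissues did not overlap. Means were 2771 ± 235 and 33082 ± 2777 (SD, n = 4 each), and the difference was 3.58 ± 0.18 on the log2 scale (limma, 95% interval 3.17 to 3.98, adjusted p = 2.61e-06). Gene-level reads do not separate the short from the long isoform.

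Both nuclear-retained members were therefore called higher in small intestine, against 22.0% of all genes tested, and both had groups that did not overlap, against 20.3% of all genes. Among the 16215 genes averaging 10 reads or more, 34.6% were called higher, and 5845 had every intestinal library above every marrow library. In SI_6, the library with the most epithelial marker reads, both genes had their lowest intestinal count. Without it the differences were 3.19 for Malat1 and 3.62 for Neat1.

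Gas5 (ENSMUSG00000053332, chr1:161034422-161038539, plus strand, annotated as a processed transcript with 3760 exon bases and 25 transcripts) had normalised counts of 2313 in BM_1, 2388 in BM_3, 1975 in BM_4 and 2334 in BM_5. In small intestine the counts were 1887 in SI_6, 1735 in SI_7, 1511 in SI_10 and 1584 in SI_11. The tissues did not overlap, but BM_4 and SI_6 were close. Means were 2253 ± 188 and 1679 ± 167 (SD, n = 4 each). The difference of -0.42 ± 0.18 on the log2 scale had a 95% interval of -0.83 to -0.02 and did not pass the threshold of 0.05 (limma, adjusted p = 0.103). Leaving out SI_10 or SI_6 brought it past the threshold, with differences of -0.38 and -0.48 (limma, adjusted p = 0.0463 and 0.0337).

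Snhg12 (ENSMUSG00000086290, chr4:132308623-132311024, plus strand, lincRNA with 2402 exon bases) had the fewest reads of the members, 75 to 301 reads per library. Normalised counts were 230.6 in BM_1, 179.3 in BM_3, 162.7 in BM_4 and 218.5 in BM_5, and 128.8 in SI_6, 119.3 in SI_7, 82.0 in SI_10 and 92.5 in SI_11. All intestinal libraries lay below all marrow libraries. The means of 197.8 ± 32.0 and 105.6 ± 22.0 (SD, n = 4 each) differed by -0.89 ± 0.22 on the log2 scale (limma, 95% interval -1.40 to -0.38, adjusted p = 0.0145).

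Of the 2 member hosts, 1 was thus called lower, against 12.9% of all genes and 28.6% of genes averaging 10 reads or more. Both had groups that did not overlap, against 13.9% of all genes and 5078 of the 16215 genes averaging 10 reads or more. SI_6, with the most epithelial and cycling marker reads of the intestinal libraries, had the highest intestinal count of both hosts. Without it, Snhg12 differed by -0.99.

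**Figure D1:**
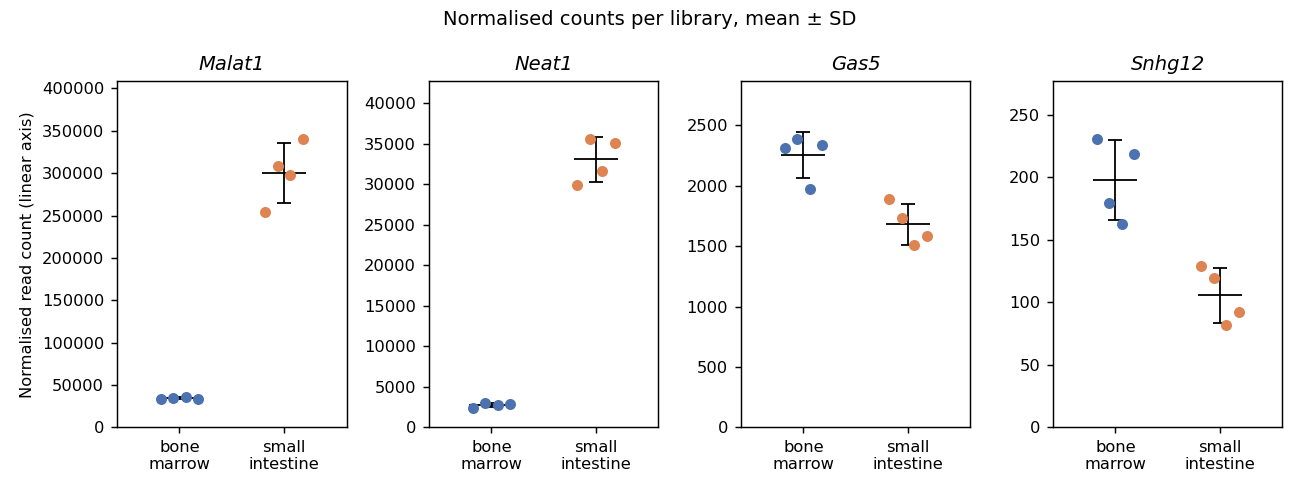
Normalised counts of Malat1, Neat1, Gas5 and Snhg12 on linear axes from 0, with a point for each of the 4 bone marrow (blue) and 4 small intestine (orange) libraries, a line for the mean and error bars for the SD. Malat1 and Neat1 were higher in every small intestine library (means of 34604 against 300330 and 2771 against 33082), and Gas5 and Snhg12 lower.

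Sizes of difference depend on how libraries are scaled, since the median difference over all genes was 0.37 and not 0 on the log2 scale. Relative to that median, the members differed by 2.74 (Malat1), 3.21 (Neat1), -0.79 (Gas5) and -1.26 (Snhg12). Relative to the median of genes averaging 10 reads or more, 0.12, they differed by 2.99, 3.455, -0.55 and -1.01 in the same order. With each library centred on its median, which moves the median of all genes to -0.53, Malat1 still differed by 2.21 and Neat1 by 2.68, and both were called under every alternative run. Snhg12 was also called under all of them, with differences between -1.79 and -0.78, whereas Gas5 was called under 9 of 17. The share of calls that were higher in small intestine was 63.2% as deposited, 29.6% after median centring, 45.9% after quantile normalisation and 49.5% with size factors from totals without ribosomal RNA genes. The median of all genes rests largely on genes with few reads, since 22084 of 38392 had a mean under 10 normalised counts. Centring on it also raised the SE of Gas5 from 0.18 to 0.46. Centring over genes averaging 10 reads or more left the median of all genes at 0.31 and 59.5% of calls higher. Elsewhere, median centring without further words is over all genes.

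**Figure D2:**
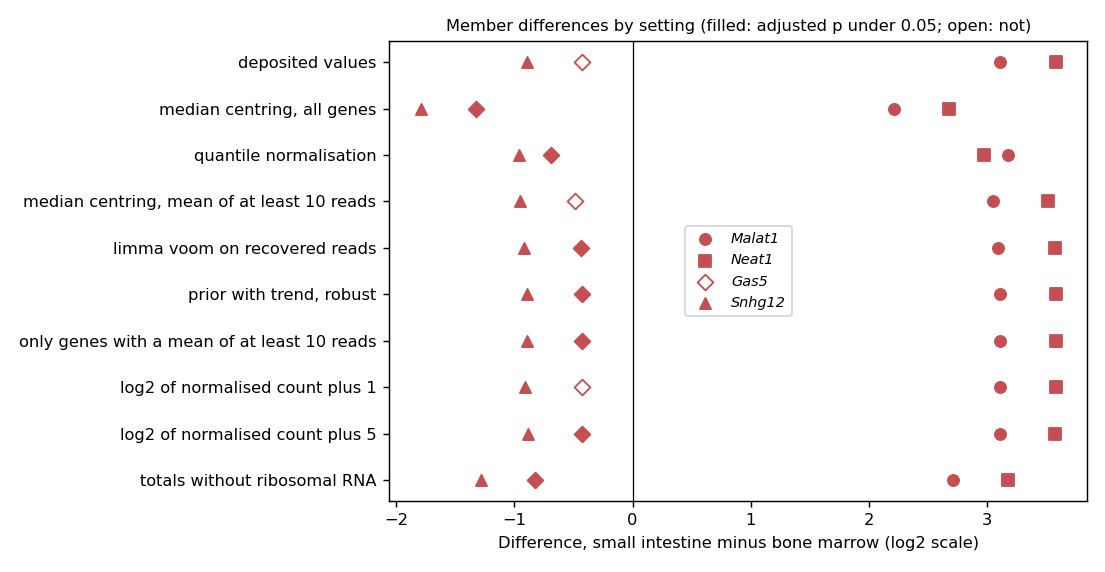
Differences of the 4 members (small intestine minus bone marrow, log2) as deposited and under 9 alternative scalings, filters and models, with filled points for adjusted p under 0.05. Malat1 and Neat1 stayed right of 2.21 and Snhg12 below 0 in each, and Gas5 was filled in 7 of the 9.

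Per length, the members stood far apart. RPKM scales reads to the exon length of a gene, merged over all its annotated transcripts, and to the reads in genes of the library. In RPKM, Malat1 had a level of 372.6 ± 24.6 in marrow and 2687 ± 231 in the intestine (SD, n = 4 each), rank 58 and rank 7 of all genes. Neat1 was at 10.04 ± 1.12 and 99.6 ± 6.18, which moved it from rank 3949 to rank 335. Levels of Gas5 were 45.0 ± 3.32 and 28.0 ± 3.38, and those of Snhg12 6.18 ± 0.991 and 2.76 ± 0.616. On these merged lengths, Gas5 stood above Neat1 in marrow and below it in the intestine, and libraries of neighbours in the order did not overlap in either tissue. The order depends on the lengths used, 3760 bases for Gas5 with its 25 transcripts and 20771 for Neat1. Which isoforms gave the reads was not tested. As a share of all reads in genes, Malat1 took 0.260% ± 0.0172 in marrow and 1.88% ± 0.161 in the intestine (SD, n = 4 each).

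Spread between the libraries of a tissue was compared on the deposited values. For 2694 genes with a mean of at least 1000 normalised counts, the median SD of deposited values was 0.12 in marrow and 0.20 in the intestine. Malat1 had an SD of 0.046 in bone marrow, lower than all but 7.05% of those genes, and 0.18 in small intestine. For Neat1 the SD was 0.13 and 0.12, and for Gas5 0.13 and 0.14, so the tissue differences of Malat1 and Neat1 were many times the spread. Snhg12, with fewer reads, had an SD of 0.23 and 0.29.

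Ratios of reads within a library do not depend on its size factor. Malat1 gave 15.5 ± 1.78 reads for each Gas5 read in bone marrow, with a range of 14.4 to 18.1, and 181.2 ± 34.5 in small intestine, with a range of 134.7 to 215.1 (SD, n = 4 each). For each 100 Malat1 reads there were 8.005 ± 0.596 Neat1 reads in marrow and 11.1 ± 0.683 in the intestine, so the nuclear RNAs were not higher by one factor. Every intestinal library lay above every marrow library (10.3 to 11.7 against 7.32 to 8.59).

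Snhg12 reads for each 100 Gas5 reads were 8.77 ± 1.10 in marrow and 6.24 ± 0.721 in the intestine (SD, n = 4 each), again without overlap. Set against the ribosomal protein genes, Gas5 read higher in small intestine. There were 0.767 ± 0.119 Gas5 reads for each 100 reads of ribosomal protein genes in marrow and 1.43 ± 0.208 in the intestine, with all intestinal libraries above all marrow libraries. The Snhg12 ratio to the same genes overlapped between tissues. Xist, a nuclear RNA that coats a chromosome, gave a reference of similar kind, with 0.686 ± 0.0338 Malat1 reads for each Xist read in marrow and 6.78 ± 0.640 in the intestine.

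**Figure D3:**
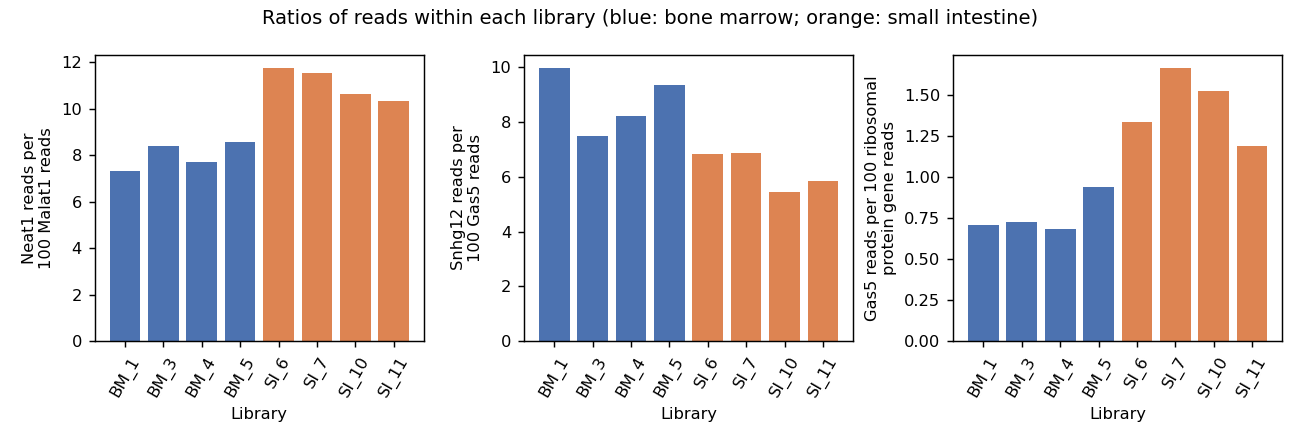
Ratios of reads within each library, with a bar for each library, blue for bone marrow and orange for small intestine. Neat1 per 100 Malat1 reads (8.005 against 11.1) and Gas5 per 100 ribosomal protein reads (0.767 against 1.43) were higher in all small intestine libraries, and Snhg12 per 100 Gas5 reads (8.77 against 6.24) was lower in all of them.

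Other noncoding snoRNA hosts were taken from a list of 13 named genes, mostly of the Snhg series. Snhg20 is in the list by its symbol, though the annotation used places no snoRNA gene of the same strand inside it. Of these, 5 were called lower and 2 higher, beside 28.6% and 34.6% of all genes averaging 10 reads or more. Their median difference was -0.53, against 0.12 for genes averaging 10 reads or more and 0.37 for all genes. Within the list Snhg5 had the largest fall, at 630.5 ± 81.2 normalised counts in marrow and 170.6 ± 41.5 in the intestine (SD, n = 4 each), a difference of -1.88 ± 0.22 (limma, adjusted p = 0.000265). Snhg17 differed by -1.60 ± 0.24 and Snhg6 by -1.22 ± 0.19, followed by Zfas1 at -0.87 ± 0.23 and Snhg20 at -0.74 ± 0.23. Those 5 and no others of the 13 had every intestinal library below every marrow library. They are the genes called lower in these same libraries, so the calls nearly fix this. Among genes averaging 10 reads or more, 5078 of 16215 had such groups.

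Snhg15 was higher in small intestine, at 85.5 ± 11.8 and 143.3 ± 30.1 normalised counts (SD, n = 4 each; difference 0.71 ± 0.22, limma, adjusted p = 0.0356), but read -0.19 after median centring. Snhg18 was called higher on few reads, with means of 0.93 and 21.8 and marrow reads in BM_5 alone. Snhg8 differed by -0.53 and Snhg16 by -0.51 without passing the test. The count called lower was 3 without BM_1, and 8 after median centring or quantile normalisation. The count called higher was 1 without BM_1, BM_3, SI_7 or SI_11, and ran from 1 to 3 when each library was left out.

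With the members included, the list held 15 noncoding hosts, of which 10 had a mean of at least 50 normalised counts. Among these 10, 6 were called lower and 1 higher, and the median difference was -0.80. Over all 15, 6 were called lower and 2 higher, with a median of -0.53. Of all genes averaging 10 reads or more, 28.6% were called lower and 34.6% higher. Gas5 held most of the reads of all 15, at 50.9% ± 2.87 in marrow and 59.3% ± 1.34 in the intestine (SD, n = 4 each). Its share was higher in every intestinal library.

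Long noncoding RNAs that act on chromatin are given for comparison. Of 11 in the table, 4 were called higher and 3 lower, close to the 34.6% and 28.6% of all genes averaging 10 reads or more, and the median difference was 0.08. Xist, which silences an X chromosome, had the most reads, at 50474 ± 2052 normalised counts in marrow and 44254 ± 1968 in the intestine (SD, n = 4 each), a difference of -0.19 that did not pass the test (limma, adjusted p = 0.43). Kcnq1ot1, which silences an imprinted cluster, was lower at 6630 ± 139 and 3820 ± 653, a difference of -0.81 ± 0.19 (limma, adjusted p = 0.00968). Ftx and Jpx, from the locus around Xist, were lower as well, with differences of -1.18 ± 0.18 and -0.70 ± 0.22.

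Tug1, at 1754 ± 194 and 1857 ± 97.3 normalised counts, differed by 0.09 (limma, adjusted p = 0.721), and by -0.81 after median centring, -0.17 after quantile normalisation and -0.32 with totals without ribosomal RNA. The 4 called higher had few reads in marrow. Meg3, an imprinted RNA, had means of 7.28 ± 7.19 and 85.3 ± 44.4 (difference 3.44 ± 0.72), Airn 12.2 and 100.5, Miat 1.02 and 19.9, and Rian 14.1 and 45.0, the last with overlapping groups. Stromal and epithelial marker reads were higher in the same libraries, and their part was not tested.

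**Figure D4:**
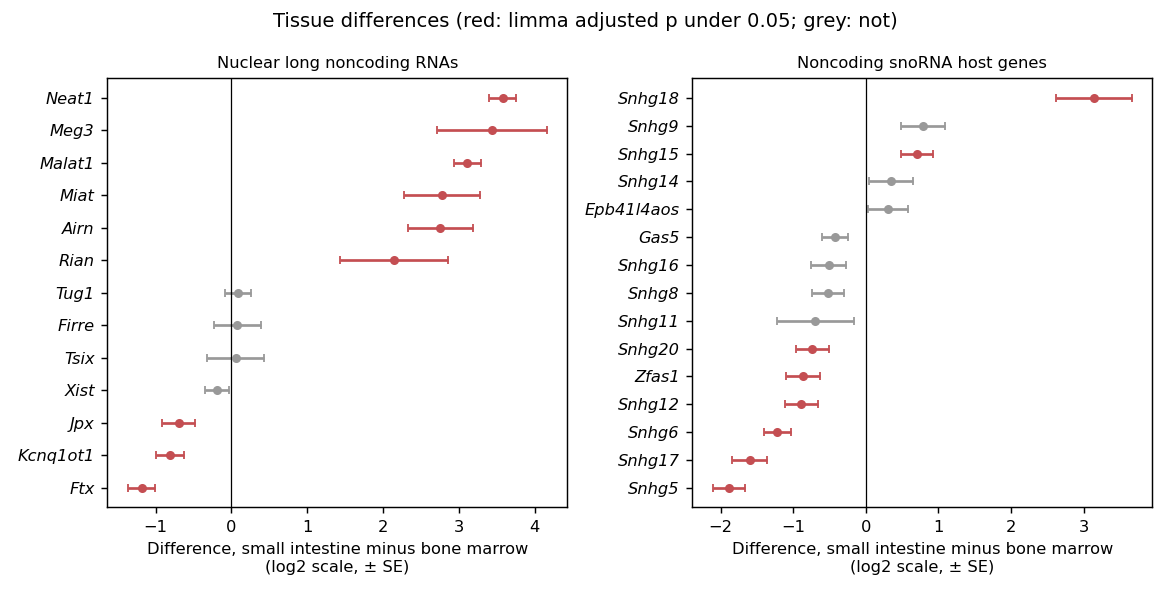
Differences (small intestine minus bone marrow, log2, with limma's SE as error bars) of Malat1, Neat1 and 11 chromatin-associated long noncoding RNAs in the left panel and of 15 noncoding snoRNA hosts, Gas5 and Snhg12 among them, in the right panel, with red for adjusted p under 0.05 and grey for the rest. In the left panel Meg3 (3.44) lies between Neat1 (3.58) and Malat1 (3.11), and Miat (2.78), Airn (2.75) and Rian (2.14) come next. Xist (-0.19), Kcnq1ot1 (-0.81) and Tug1 (0.09) lie further left. In the right panel 10 of the hosts lie left of 0.

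Proteins of the nuclear bodies to which Neat1 and Malat1 belong were called in either direction. Among 20 paraspeckle proteins, 4 were called higher and 7 lower, where 34.6% and 28.6% of all genes averaging 10 reads or more were. These counts were 1 and 9 after median centring and 2 and 11 after quantile normalisation. Neat1's core partners differed among themselves. Sfpq was higher, at 4487 ± 263 and 7866 ± 1357 normalised counts (difference 0.79 ± 0.19, limma, adjusted p = 0.0123, but -0.11 after median centring). Nono was lower, at 2520 ± 159 and 1134 ± 126 (difference -1.15 ± 0.18, limma, adjusted p = 0.00112), and Pspc1 differed by -0.18 (limma, adjusted p = 0.476). Cirbp, a cold-inducible RNA-binding protein, was higher by 2.06 ± 0.24 and Hnrnph3 by 1.23 ± 0.19, and after median centring by 1.16 and 0.33, the latter no longer called. Nudt21, a cleavage factor whose complex acts on Neat1 3′ ends, was lower (difference -2.02 ± 0.20). Hnrnph1, with the most reads, differed by 0.10, and by -0.80 after median centring.

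Among 16 genes of nuclear speckles and Malat1 processing, 4 were called higher and 8 lower, again beside 34.6% and 28.6%. The 4 higher were Srrm2 (12655 ± 79.6 and 26100 ± 1856 normalised counts, difference 1.04 ± 0.16), its partner Son in building speckles, and the splicing factors Sf3b1 and Srsf5. After median centring or quantile normalisation these 4 no longer passed, and Son read -0.15 and -0.09. Rnps1 and Srsf2 were lower, with differences of -1.61 ± 0.17 and -1.49 ± 0.18 (limma, adjusted p = 0.000155 and 0.000266). Elac2, which encodes the RNase Z that cuts the Malat1 tRNA-like RNA, was lower (difference -0.95 ± 0.21), as was Mettl16, which binds the Malat1 triple helix (-0.64 ± 0.20).

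The machinery that makes snoRNA particles was lower in the intestine nearly throughout. Of 20 snoRNP proteins and assembly factors, 18 were called lower (median -1.48) and all 20 differences were below 0. Among all genes averaging 10 reads or more, 28.6% were called lower. Under every alternative 16 to 20 were called lower and 0 higher. Dkc1, the pseudouridine synthase of H/ACA particles, had 2264 ± 111 and 363.9 ± 116 normalised counts (SD, n = 4 each; difference -2.67 ± 0.25, limma, adjusted p = 6.87e-05). Ruvbl2, an assembly ATPase, differed by -2.42 ± 0.21, and the core protein of C/D particles Nop56 by -2.10 ± 0.23. Fbl, the methyltransferase of C/D particles, was lower (difference -1.06 ± 0.20). The pair not called were Snu13 (-0.47) and Rrp9 (-0.89), each with adjusted p = 0.11. Cycling marker reads were also lower in small intestine, and their part in these differences was not tested.

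Factors of nonsense-mediated decay, which removes many spliced hosts such as Gas5, numbered 17 in the table. Of these, 4 were called higher and 4 lower, beside 34.6% and 28.6% of all genes averaging 10 reads or more. After median centring the 4 higher no longer passed and 8 were called lower. Smg6, the endonuclease of the pathway, was at 903.8 ± 71.3 and 3446 ± 558 normalised counts (difference 1.92 ± 0.19, limma, adjusted p = 0.000108), and the kinase Smg1 was higher by 0.94 ± 0.17. Smg8 and Upf3b were lower, with differences of -1.63 ± 0.18 and -1.35 ± 0.17. Upf1, the central helicase, was lower (difference -0.56 ± 0.18, limma, adjusted p = 0.0466).

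Messenger RNAs known for TOP tracts were lower in small intestine. Of 14 translation genes listed as known for such tracts, ribosomal protein genes aside, 13 were called lower and the other was also below 0 (median -1.30). Of 81 cytosolic ribosomal protein genes, 73 were called lower and 1 higher (median -1.29). Beside these counts, 28.6% of all genes averaging 10 reads or more were called lower and 34.6% higher. Npm1 differed by -2.05 ± 0.23, Pabpc1 by -1.53 ± 0.19 and Rack1 by -1.55 ± 0.23, while Tpt1 differed by -0.21 and was not called. Rpl4, the ribosomal protein gene with the most reads, was at 20962 ± 2382 and 6210 ± 1541 normalised counts (difference -1.78 ± 0.23). Rpl36a differed by -2.09 ± 0.26 and Rps18 by -1.98 ± 0.26. Rpl24, the exception called higher, had means of 10.02 and 19.9 and overlapping groups, and read -0.13 after median centring. Ribosomal protein genes have near-identical pseudogene copies with which reads may have been shared. The Gas5 difference of -0.42 thus lay above both medians, and that of Snhg12, -0.89, nearer to them.

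Under the definition used for the starts above, a tract was found at 24 of 59 ribosomal protein genes with a window (40.7%), at 4 of 8 of the translation genes and at 2 of 11 other noncoding hosts. The median difference was 0.14 for 1704 genes with a tract that averaged 10 reads or more, and 0.01 for 9487 without one, and 29.6% and 31.2% of them were called lower.

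**Figure D5:**
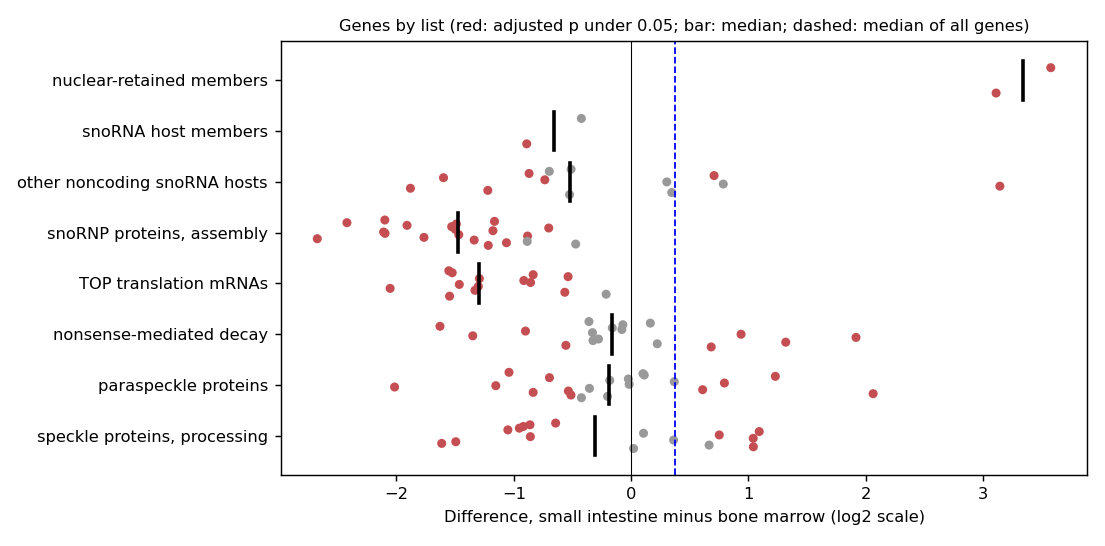
Differences (small intestine minus bone marrow, log2) of the genes in each list, with a point for each gene (red for adjusted p under 0.05, grey for the rest), a bar at the list's median and a dashed line at the median of all genes (0.37). The snoRNP (median -1.48) and TOP (-1.30) lists lie below 0, whereas the paraspeckle (-0.19), speckle (-0.31) and decay (-0.16) lists lie on both sides.

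The snoRNAs that the member hosts carry were not analysed here. GENCODE places 10 snoRNA genes inside Gas5 and 5 inside Snhg12, among them Snora16a, Snora44, Snora61 and Snord99, and 0 inside Malat1 or Neat1. Of the 77 snoRNA genes in the table, 56 had a mean under 10 normalised counts, and 7 were called higher and 7 lower, which became 3 and 30 after median centring. As deposited, 22.0% of all genes were called higher and 12.9% lower. Snora31 (36.7 ± 8.94 and 242.1 ± 46.7 normalised counts) and Snord14a were higher by 2.61 ± 0.24 and 2.54 ± 0.21. Snord118 and Snora17 were lower, each with a difference of -1.88 and SE of 0.32 and 0.44. For snoRNA genes that lie in introns, such reads cannot be told apart from reads of host introns.

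Counted over all 301 genes of the table that hold a snoRNA, 53 were called higher and 123 lower, with a median of -0.25. The 252 that encode proteins had a median of -0.36, with 47 called higher and 110 lower. The 49 noncoding ones had a median of 0.35, with 6 called higher and 13 lower. The named hosts other than Snhg20 are among these 49. The median was 0.37 for all genes and 0.12 for genes averaging 10 reads or more. Of all genes, 22.0% were called higher and 12.9% lower, and of those averaging 10 reads or more 34.6% and 28.6%. The noncoding 9330159M07Rik had the largest fall of the 301 (-4.98 ± 0.18), followed by Pole (-4.31 ± 0.45), and the largest excess was in the alpha-defensins Defa38 and Defa39, Paneth cell genes with near-identical copies whose reads are uncertain. Eif4g2, with the most reads, differed by 0.34 and was not called, and read -0.56 after median centring.

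Within 50 kb of a member, 18 genes averaged 10 reads or more, of which 3 were called higher and 3 lower, members aside, beside 34.6% and 28.6% of all such genes. Around Malat1 and Neat1, Frmd8 differed by -0.52 ± 0.18 (limma, adjusted p = 0.0528), Ltbp3 by -0.01 and Slc25a45 by 0.58, none of them called, and Tigd3, a gene with few reads, was lower (difference -1.15 ± 0.36). Beside Gas5, Zbtb37 was higher by 0.79 ± 0.22 and Cenpl by 0.82 ± 0.21, and Serpinc1 by 1.21 ± 0.25, but after median centring none of them was called, with values of -0.11, -0.076 and 0.31. Zbtb37 overlaps the 5′ end of Gas5 on the other strand, and the kit is not stated to keep strand, so reads there cannot be assigned to either gene. Near Snhg12, the chromatin factor Rcc1, itself a snoRNA-holding gene, was lower (difference -2.98 ± 0.35), as was Taf12 (-1.07 ± 0.18), whereas Trnau1ap, 739 bases away, differed by -0.39 and was not called.

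The genes most like each member over the 8 libraries are given as a description, since with 4 libraries in each of 2 tissues a correlation mostly reflects the tissue difference. Pearson's r was computed for 8669 genes with a mean of at least 100 normalised counts. For Malat1 the closest were Tbxas1 (r = 0.9998), Cd274 and Ptprc (both 0.9997), which encode thromboxane synthase, the checkpoint ligand PD-L1 and CD45, and 1856 genes exceeded 0.95. For Neat1 they were Csf2rb2 (0.9999), Ahr and Pla2g7 (both 0.9997), which encode a cytokine receptor chain, the aryl hydrocarbon receptor and a phospholipase, with 1791 genes over 0.95. The hosts had fewer close matches. Gas5 was nearest to Yipf5 (0.9815), Ndufaf4 (0.9806) and Mkks (0.9802) and had 82 genes over 0.95, and Snhg12 to Cep290 (0.9857), Glrx2 (0.9801) and Mettl8 (0.9769), with 93.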

How the data were processed

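Eosinophil RNA was amplified as cDNA and sequenced as single reads. The authors counted reads per gene with nf-core/rnaseq on GRCm38 (Ensembl annotation) and deposited log2-like values from the variance stabilisation of DESeq2, run in R 4.0.3 per the labels. Not given in the sources used here: pipeline version, aligner, strand setting and the handling of multiply matching reads. The 4 libraries per tissue are taken as replicates from the labels, and p-values set the tissue difference against the spread between these samples. In limma that spread is drawn towards a value common to all genes, those with few reads among them. Gas5 had an SE of 0.18 in this fit and 0.11 with a trended robust prior.

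The deposited values share a lowest value of 0.92971568, from which the transformation was inverted. Multiplied by a size factor, the result was whole reads within 0.05 for 100% of genes below 1000 reads, and normalised counts, shares and ratios rest on these. Depth of 11508002 to 21289164 reads limits mainly genes with a mean under 10 reads. Intervals are for the tissue difference and rest on the spread between libraries, and shares carry counting error besides.

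The test was limma 3.58.1 in R 4.3.3 applied to the deposited log2 values (8 libraries) with no filter or covariate, 2-sided, Benjamini-Hochberg adjusted over 38392 genes, threshold 0.05. It stands in for the count model the authors fitted, since the unit is log2. It was tested on simulated data with 200 changed genes. Python 3.11.15, numpy 2.4.6, pandas 2.3.3 and matplotlib 3.10.9 did the rest. Alternatives were median centring over all or well-read genes, quantile normalisation, limma voom on recovered reads, a trended robust prior, a filter at 10 reads, pseudocounts of 1 and 5, size factors from totals without ribosomal RNA genes, and leaving out each library. Coordinates are from GENCODE M21, where all 38392 identifiers were found, and start windows from RefSeq.

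Members, gene lists and tests were chosen with earlier results of these data known, and list counts are descriptions. Named genes were the members, genes within 50 kb of a member, the 2 largest rises, 2 largest falls and most abundant gene of each list, the 3 genes most correlated with each member (without predicted genes, RIKEN clones and pseudogenes) and marker genes. Of these, 2 genes are not reported here. Other list genes were named after their values were seen.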

Additional observations from a re-analysis of the deposited data

Results flagged for a closer look

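In groups of 4 libraries, a value was set apart where the gap from the lowest or highest library to the nearest other as a share of the whole range, exceeded Dixon's 95% critical value. This held for 11 of 164 groups, and chance alone sets apart about 1 in 20. Among the members, Gas5 was lowest in BM_4 (gap 0.832 of the range), where Malat1 reads per Gas5 read were highest (0.915). Gas5 reads per 100 ribosomal protein reads were highest in BM_5 (0.833), and the share of Gas5 in the reads of noncoding hosts was lowest in SI_6 (0.845). SI_6 also had the highest intestinal value of Snhg5 (0.859). Other values set apart were the lowest of Mkks in BM_4 (0.843), the lowest of Cirbp (0.859) and of Pole (0.88) in BM_5, the lowest of Tigd3 in SI_10 (0.832) and the highest of Xist in SI_11 (0.887). For Snhg18 in bone marrow the gap was 1, because the other 3 libraries had 0 reads, and it carries no weight.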

How the results depend on the processing

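Malat1, Neat1 and Snhg12 kept their direction and their call under all 17 alternatives. Gas5 passed the threshold at -1.32 with median centring, -0.69 with quantile normalisation, -0.43 with voom, -0.42 with a trended prior, the filter or a pseudocount of 5, and -0.83 with totals without ribosomal RNA, so that 2 member hosts were then called lower. Leaving out single libraries gave Gas5 -0.49 to -0.38 and 1 to 2 hosts called. Over all genes, median centring left 4285 called higher and 10216 lower, and leaving out libraries 6701 to 9596 and 4281 to 5166. Of the 13 other listed noncoding hosts, 8 were called lower under median centring or quantile normalisation, and 3 to 6 without single libraries. Among the 73 genes named by the rule (Sfpq, Son and Tug1 are not among them and also reversed), directions reversed with median centring for Cenpl (-0.076), Eif4g2 (-0.56), Hnrnph1 (-0.80), Rpl24 (-0.13), Slc25a45 (-0.32), Snhg15 (-0.19) and Zbtb37 (-0.11), with quantile normalisation for Eif4g2 (-0.52), Hnrnph1 (-0.62) and Rpl24 (-0.19), and with totals without ribosomal RNA for Eif4g2 (-0.068) and Hnrnph1 (-0.30). Ltbp3, near 0, reversed with voom (0.021), a pseudocount of 5 (0.0044) and without single libraries (-0.36 to 0.37), and Klhl20 without single libraries (-0.102 to 0.0295). The cause was not tested, apart from the scaling and the fewer samples that these settings bring by construction. Over these genes, 1240 values were computed, of which 1132 kept direction and call, 44 lost the call, 43 gained it and 21 reversed. No paired analysis was possible because no number is common to a marrow and an intestinal library. Depth limits Snhg12, Snhg18 and most snoRNA genes.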
